A study of Mus musculus with 6 samples.

Results

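The genes described here encode 9 receptors of the chemokine and chemerin family, picked by name from the 27240 genes of the deposited table, in which each has 1 row. They are Ccrl2, Cmklr1, Ccr1, Cxcr4, Ccr7, Ccr2, Ccr3, Ackr3 and Cx3cr1. Their transcripts were measured by poly(A) RNA sequencing of mouse primary peritoneal macrophages, the phagocytes of the abdominal cavity. That source is given by the sample labels, whereas the extraction protocol speaks of RNA of an adipose type. By the labelled genotype, 3 libraries were knockout (KO) and 3 were wild type (WT). Cells of both genotypes were treated with oxLDL (oxidised LDL), the altered lipid particle whose uptake turns macrophages into foam cells, and no library of cells without it was analysed here. The series title names the kinase DCLK1 and its binding to IKKβ, the kinase that activates the transcription factor NF-κB. The labels give the genotype only as KO or WT, with no allele, strain, sex, age or Cre driver, and do not say whether replicates came from separate animals or cultures. The p-values therefore measure only the spread between these libraries, which may be technical.

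Chemokines are small secreted proteins that steer migrating leukocytes. Most of their receptors are proteins with a serpentine fold in the plasma membrane that signal through inhibitory G proteins and are then shut off by receptor kinases and arrestins. Atypical receptors of the family bind a ligand without that signal and scavenge or concentrate it. In atherosclerosis, Ccr2 and Cx3cr1 are known for the recruitment and survival of monocytes in the plaque, and Ccr7 for the migration of cells towards lymphatic vessels.

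Total counts lay between 72559141 and 74172804 in KO and between 68053008 and 79090732 in WT libraries. Dclk1 was at 5.53 ± 0.370 CPM (counts scaled to library size) in KO libraries and at 7.13 ± 0.383 CPM in WT libraries (SD, n = 3 each, edgeR adjusted p = 0.332). The 3 KO libraries lay below the 3 WT libraries without passing the test, and the labels do not name the deleted gene, so this gives no firm check of the genotypes. The macrophage gene Adgre1, which encodes the F4/80 antigen, was at 1005 to 1031 CPM in KO and 1021 to 1083 CPM in WT libraries. Of 7 macrophage markers, 2 did not overlap between groups, where 17.6% of all genes tested did not overlap. Csf1r was lower, at 965 ± 4.45 CPM in KO and 1021 ± 33.0 CPM in WT libraries. Itgam was higher, at 513 ± 91.6 CPM in KO and 327 ± 91.4 CPM in WT libraries (SD, n = 3 each, edgeR adjusted p = 0.394 and 0.344). Gata6 and Timd4, which mark large resident peritoneal macrophages, were scarce, at 1.53 to 2.58 and 0.615 to 1.083 CPM in KO and 2.42 to 2.82 and 0.968 to 1.41 CPM in WT libraries. The 6 markers of those cells summed to 589 to 623 CPM in KO and 498 to 514 CPM in WT libraries, nearly all of it from Thbs1 at 581 to 616 CPM in KO and 491 to 505 CPM in WT libraries, so the sum does not follow Gata6 and Timd4. Of these large peritoneal macrophage markers 5 were tested, with 2 values below 0 (Gata6 and Timd4) and 3 above 0. Cxcl13 was at 3.38 to 3.92 CPM in KO and 2.14 to 3.14 CPM in WT libraries. Icam2 overlapped between groups (log2 fold change 0.08). Selp, which was not tested, was at 0.0668 to 0.109 CPM in KO and 0 to 0.0538 CPM in WT libraries. Fibroblast and mesothelial markers summed to 59.5 to 73.4 CPM in KO and 78.7 to 82.7 CPM in WT libraries, most of it from Col1a1, Col1a2 and Col3a1. Of the 8, all tested, 6 had values below 0 and 2 above it (Wt1 and Upk3b). The groups did not overlap for 2 lower and 1 higher in KO. The higher one was the mesothelial marker Wt1, at 1.27 to 1.44 CPM in KO and 0.883 to 0.916 CPM in WT libraries. Neutrophil markers summed to 20.7 to 23.0 CPM in KO and 23.6 to 26.3 CPM in WT libraries, nearly all from S100a8, with S100a9 at 0.109 to 0.205 CPM in KO and 0 to 0.0588 CPM in WT libraries and with Ly6g and Retnlg at 0. Endothelial markers summed to 18.0 to 19.7 CPM in KO and 13.5 to 15.9 CPM in WT libraries, of which Kdr alone held 16.9 to 18.2 CPM in KO and 12.7 to 14.2 CPM in WT libraries, with Tek at 0. The 6 mast cell and basophil markers summed to 3.02 to 4.25 CPM in KO and 4.98 to 6.10 CPM in WT libraries. All 5 of them that were tested had values below 0, and 1 of these did not overlap between groups. The part of these cells in the values of the receptor genes was not tested. On the first principal component (28.8% of the variance) KO replicates 1, 2 and 3 lay at 6.11, 17.6 and 23.8 and WT replicates 1, 2 and 3 at -24.0, -15.0 and -8.50, so the genotypes stood apart and the libraries of each were spread. A count of 4 was listed for 1005 to 1159 genes per library and a count of 5 for 172 to 203, so low counts came in steps of about 4. With 3 such steps as the limit that a count of 0 allows, a gene at 0 could be at up to 0.153 to 0.177 CPM, a limit that covers counting error only.

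The receptor genes fell into 3 ranges of abundance when compared per length, as deposited FPKM (fragments scaled to transcript length and library size). Ccrl2, Ccr1, Cxcr4 and Cmklr1 together held 96.6 to 97.5% of the summed FPKM of the 9 genes in KO and 96.1 to 96.8% in WT libraries. In KO libraries the order was Ccrl2 at 49.5 ± 2.36, Ccr1 at 42.1 ± 1.16, Cxcr4 at 39.6 ± 0.300 and Cmklr1 at 24.1 ± 1.34 FPKM (SD, n = 3), with no overlap between neighbours. The order in WT libraries was Ccrl2 at 63.7 ± 3.36, Ccr1 at 38.8 ± 1.82, Cxcr4 at 36.7 ± 0.963 and Cmklr1 at 28.9 ± 1.29 FPKM (SD, n = 3), and there the values of Ccr1 and Cxcr4 overlapped. Ccr7 followed at 4.26 ± 0.608 FPKM in KO and 5.31 ± 0.592 FPKM in WT libraries. Ccr2 was at 0.451 ± 0.0467 FPKM in KO and 0.526 ± 0.0424 FPKM in WT libraries. The other 3 genes, Ackr3, Ccr3 and Cx3cr1, had no value above 0.0896 FPKM in any library, and their order could not be told from their spread.

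**Figure D1:**
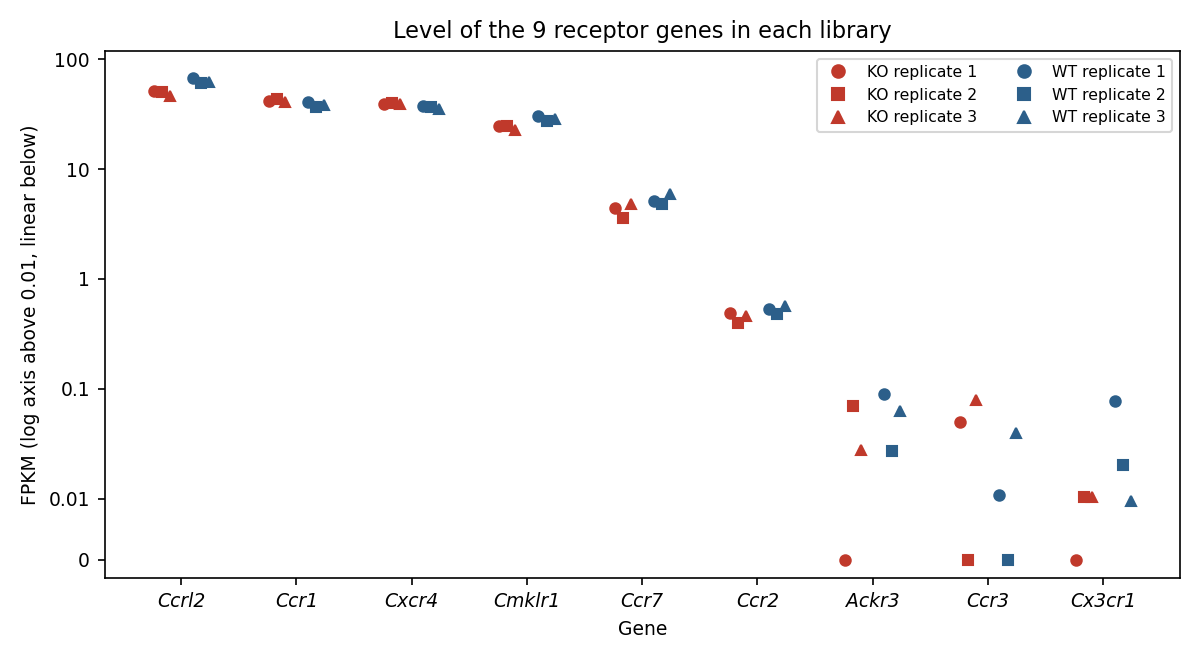
Deposited FPKM of the 9 receptor genes (vertical axis, logarithmic above 0.01) in each KO (red) and WT (blue) library, with 1 symbol per replicate. Ccrl2, Ccr1, Cxcr4 and Cmklr1 lie between 22.6 and 67.6 FPKM, while Ackr3, Ccr3 and Cx3cr1 lie at or below 0.0896 FPKM.

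Neighbouring receptor genes had very different levels. There were 5 of the 9 genes on chromosome 9 and 2 on chromosome 1, by the deposited coordinates (taken as GRCm38). Ccr1 (chromosome 9, 123962124 to 123968692, minus strand), Ccr3 (124021972 to 124031689, plus strand) and Ccr2 (124101950 to 124113557, plus strand) lie within 151434 bases. The level of Ccr1 was 42.1 ± 1.16 FPKM in KO and 38.8 ± 1.82 FPKM in WT libraries, while Ccr3, its neighbour among the members, averaged 0.0428 FPKM in KO and 0.0168 FPKM in WT libraries. Ccrl2 lies apart on the same chromosome (111054486 to 111057519, minus strand).

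The 250 bases before the start of transcription are printed for the 4 abundant receptors, since these genes carry nearly all of the family's RNA and stand on both sides of a log2 fold change of 0. Sequences are RefSeq's (GRCm38.p6), 5′ to 3′ on the gene's strand, and a promoter was given for 8 of the 9 genes. Capitals mark every match on either strand to 5 motifs. These are the NF-κB consensus, the TATA box as TATAAA, the GC box as GGGCGG, the core of the site of PU.1 (a macrophage transcription factor) as GAGGAA and the CCAAT box as CCAAT.
Ccrl2, chr9:111057519-111057768, minus strand: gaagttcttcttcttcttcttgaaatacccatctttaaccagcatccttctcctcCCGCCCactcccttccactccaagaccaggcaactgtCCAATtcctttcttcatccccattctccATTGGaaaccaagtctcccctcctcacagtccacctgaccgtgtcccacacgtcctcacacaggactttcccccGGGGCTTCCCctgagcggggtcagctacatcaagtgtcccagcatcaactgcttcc
Cmklr1, chr5:113643604-113643853, minus strand: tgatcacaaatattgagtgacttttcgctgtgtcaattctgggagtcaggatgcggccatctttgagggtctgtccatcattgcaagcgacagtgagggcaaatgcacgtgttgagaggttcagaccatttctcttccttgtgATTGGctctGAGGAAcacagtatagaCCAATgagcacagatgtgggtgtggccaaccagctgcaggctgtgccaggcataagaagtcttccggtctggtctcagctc
Ccr1, chr9:123968693-123968942, minus strand: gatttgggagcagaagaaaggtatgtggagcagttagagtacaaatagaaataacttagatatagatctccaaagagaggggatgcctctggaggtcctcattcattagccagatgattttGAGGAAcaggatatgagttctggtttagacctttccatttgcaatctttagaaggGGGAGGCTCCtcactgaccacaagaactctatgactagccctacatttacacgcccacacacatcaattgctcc
Cxcr4, chr1:128592300-128592549, minus strand: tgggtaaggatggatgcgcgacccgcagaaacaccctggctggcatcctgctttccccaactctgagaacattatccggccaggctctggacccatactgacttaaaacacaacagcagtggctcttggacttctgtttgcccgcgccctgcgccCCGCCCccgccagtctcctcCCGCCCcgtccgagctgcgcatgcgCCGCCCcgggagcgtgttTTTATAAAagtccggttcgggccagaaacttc
In Ccrl2 the NF-κB consensus stood 56 to 47 bases before the start and matched on both strands. Ccr1 held 1 match to it as well, 74 to 65 bases before the start, and Cmklr1 and Cxcr4 held none in this window. Of 32536 distinct mouse promoter windows of this length, 7.28% held it. GAGGAA stood in Cmklr1 and Ccr1 (23.4% of windows) and CCAAT in Ccrl2 and Cmklr1 (33.8%). Cxcr4 held 3 GC boxes (33% of windows hold at least 1) and a TATAAA match 30 to 25 bases before the start (12.3%), which overlapped a match on the other strand. A GC box also stood in Ccrl2, 195 to 190 bases before the start. Ccrl2 has 3 starts in RefSeq, of which the outermost is shown. The windows before its other starts held no match to the NF-κB consensus or to the other motifs. The Cmklr1 start lies 6823 bases inside the deposited gene. A match describes letters only and shows no binding.

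The comparison of KO with WT libraries asks which receptor transcripts differ between the genotypes under oxLDL. No receptor passed an adjusted p under 0.05 in edgeR's quasi-likelihood test over all genes, of 8 tested. Of all 16239 genes tested, 11 passed, or 0.0677%, and 0.0431% passed with a lower value in KO. At an unadjusted p under 0.05 there were 3 receptors, Ccrl2, Cmklr1 and Ccr7, all with lower values in KO, where 10.4% of all genes tested were under that value, 5.71% with a lower and 4.73% with a higher value in KO. The CPM of the groups did not overlap for 4 receptors, 3 lower in KO (Ccrl2, Cmklr1 and Ccr7) and 1 higher (Cxcr4), where 17.6% of all genes tested did not overlap, 8.89% lower and 8.68% higher in KO. The median log2 fold change over the 8 receptors was -0.25, with 5 below and 3 above 0, and the median over all genes tested was -0.0019. Cx3cr1 did not pass the filter on low counts, and Ccr3 and Ackr3 passed it at levels near the detection limit.

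**Figure D2:**
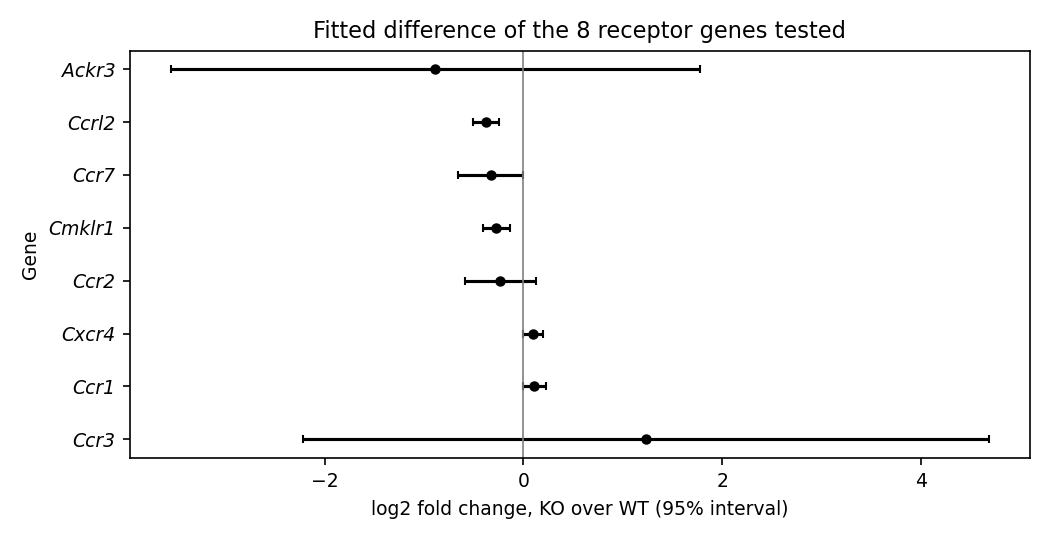
Fitted log2 fold change, KO over WT, of the 8 receptor genes tested (points) with 95% intervals from edgeR. The intervals of Ccrl2, Cmklr1 and Ccr7 lie below 0, those of Cxcr4, Ccr1 and Ccr2 include 0, and those of Ackr3 and Ccr3 span several units.

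The receptors of chemerin, an attractant of macrophages and dendritic cells, had the smallest p-values of the family. Ccrl2 encodes an atypical receptor that binds chemerin and presents it to other cells. Its level was 147.8, 145 and 135 CPM in KO replicates 1, 2 and 3 and 196, 179 and 181 CPM in WT replicates 1, 2 and 3. Every KO library lay below every WT library, and WT replicate 1 was the highest. The mean was 143 ± 6.83 CPM in KO and 185 ± 9.12 CPM in WT libraries (SD, n = 3 each), a fold of 0.771 (95% interval 0.705 to 0.843). This did not pass over all genes (edgeR p = 0.000199, adjusted p = 0.0756), and the exact two-sided permutation test gave p = 0.1, the smallest that 3 libraries against 3 allow.

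Cmklr1 encodes the receptor through which chemerin signals. It was at 93.3, 94.6 and 85.2 CPM in KO replicates 1, 2 and 3 and at 115, 106 and 109 CPM in WT replicates 1, 2 and 3. Here too the groups did not overlap, and KO replicate 3 was the lowest library, as for Ccrl2. The means were 91.0 ± 5.10 CPM in KO and 109.9 ± 4.48 CPM in WT libraries (SD, n = 3 each), a fold of 0.828 (95% interval 0.754 to 0.909), which did not pass (edgeR p = 0.00186, adjusted p = 0.144; exact permutation p = 0.1). DESeq2 on the same counts called both genes, and no other receptor of the 6 it tested, with adjusted p = 1.7e-06 for Ccrl2 and 0.0040 for Cmklr1, where it called 3.57% of the genes it tested, 2.13% as lower in KO. With the counts divided by 4, a setting added once the values were known, DESeq2 called both again and 1.83% of the 13300 genes it tested there. Under edgeR and limma neither gene passed in any of the alternatives run, including those without 1 library.

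Rarres2, the gene of chemerin itself, was at or near 0. It had 0, 0 and 0.219 CPM in KO and 0.279, 0 and 0.165 CPM in WT libraries. Of the 50-base sequences of Cmklr1 transcripts 0.329% also occur in other genes, and of those of Ccrl2 none do.

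Ccr1 and Cxcr4 had values on the other side of 0. Ccr1 encodes a receptor for Ccl3 and Ccl5 and, in mouse, Ccl6 and Ccl9. Its values were 132, 136 and 128 CPM in KO and 129, 118 and 121 CPM in WT libraries, and KO replicate 3 overlapped WT replicate 1. The mean was 132 ± 3.77 CPM in KO and 123 ± 5.29 CPM in WT libraries (SD, n = 3 each), a fold of 1.08 (95% interval 0.996 to 1.17, edgeR adjusted p = 0.506). On the FPKM scale its groups did not overlap, by a narrow margin, with 40.9 FPKM as the lowest KO and 40.7 FPKM as the highest WT value. Cxcr4, the receptor of Cxcl12, was at 78.9, 80.2 and 79.3 CPM in KO and 75.6, 75.1 and 71.9 CPM in WT libraries. The KO libraries all lay above the WT libraries and close together, at a mean of 79.5 ± 0.675 CPM against 74.2 ± 1.998 CPM (SD, n = 3 each). The fold was 1.07 (95% interval 0.997 to 1.15, edgeR adjusted p = 0.504).

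**Figure D3:**
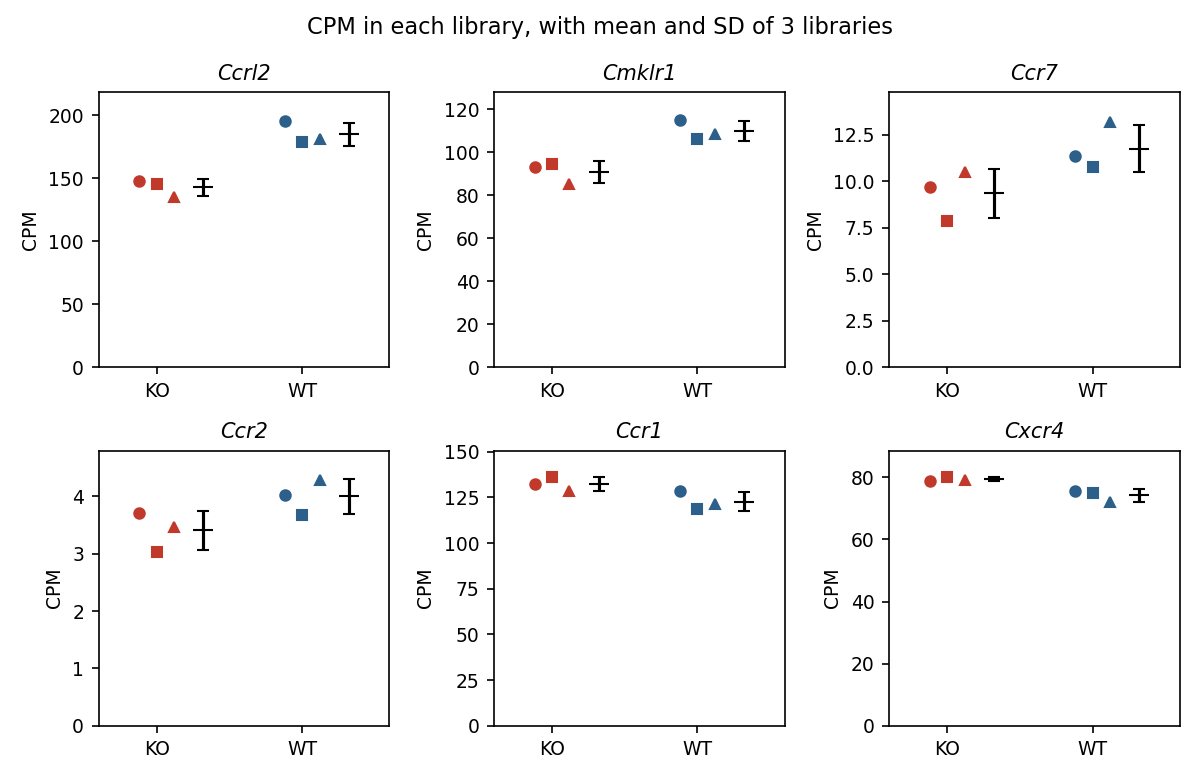
CPM of 6 receptor genes in each KO (red) and WT (blue) library, with circles, squares and triangles for replicates 1, 2 and 3 and bars for the mean and SD of 3 libraries. Each axis starts at 0. The groups are apart for Ccrl2, Cmklr1, Ccr7 and Cxcr4 and overlap for Ccr2 and Ccr1.

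Because Ccrl2 and Ccr1 are both abundant, their ratio within each library, which does not depend on library scaling, describes the make-up of the family. It was chosen after the values were seen and is given without a test. The FPKM ratio of Ccrl2 to Ccr1 was 1.22, 1.16 and 1.15 in KO replicates 1, 2 and 3 and 1.66, 1.65 and 1.63 in WT replicates 1, 2 and 3. That of Cmklr1 to Ccr1 was 0.586, 0.578 and 0.551 in KO libraries and 0.743, 0.746 and 0.745 in WT libraries. A ratio differs between the genotypes as far as the folds of its genes differ. Genes with like folds therefore give ratios that differ less, which is no separate result. Ccrl2 to Cmklr1 stood at 2.06 ± 0.0367 in KO and 2.21 ± 0.0233 in WT libraries (SD, n = 3 each). Its values did not overlap, at 2.01 to 2.08 in KO and 2.19 to 2.23 in WT libraries. Ccr1 to Cxcr4 stood at 1.06 ± 0.0255 in KO and 1.06 ± 0.0428 in WT libraries (SD, n = 3 each).

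Receptors of migrating monocytes and dendritic cells were lower in abundance. Ccr7, the receptor of Ccl19 and Ccl21, was at 9.66, 7.88 and 10.5 CPM in KO and 11.3, 10.7 and 13.2 CPM in WT libraries. KO replicate 3 and WT replicate 2 nearly met. The mean was 9.34 ± 1.33 CPM in KO and 11.7 ± 1.27 CPM in WT libraries (SD, n = 3 each), a fold of 0.795 (95% interval 0.636 to 0.994). It did not pass (edgeR p = 0.0455, adjusted p = 0.462; exact permutation p = 0.1). Dendritic cells and lymphocytes also use Ccr7. The summed level of 7 dendritic cell markers was 15.8 to 17.2 CPM in KO and 19.9 to 24.4 CPM in WT libraries, most of it from Fscn1 at 11.8 ± 1.001 CPM in KO and 16.9 ± 2.71 CPM in WT libraries (SD, n = 3 each). Flt3, Zbtb46, Itgae and Dpp4 had overlapping groups, with log2 fold changes of 0.03, -0.04, 0.04 and -0.22. Batf3 was lower in KO without overlap, by a narrow margin, at 0.328 to 0.668 CPM against 0.672 to 0.824 CPM in WT libraries. Its log2 fold change was -0.63 (edgeR adjusted p = 0.639). Cd209a had no count in any library but WT replicate 3. The 8 T and NK cell markers summed to 11.4 to 11.6 CPM in KO and 14.3 to 17.3 CPM in WT libraries. The 6 B cell markers summed to 5.11 to 6.40 CPM in KO and 4.32 to 5.06 CPM in WT libraries, so these lymphocyte sums stood in opposite order. The part of these cells in the Ccr7 values was not tested, and in bulk samples fewer cells of a type and less RNA per cell cannot be told apart.

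Ccr2, the receptor of Ccl2 that brings monocytes out of the bone marrow, was at 3.72, 3.04 and 3.47 CPM in KO and 4.03, 3.68 and 4.29 CPM in WT libraries. The groups overlapped, and the mean was 3.41 ± 0.345 CPM in KO and 4.0 ± 0.302 CPM in WT libraries (SD, n = 3 each, fold 0.852, 95% interval 0.665 to 1.09, edgeR adjusted p = 0.664). The summed level of 6 monocyte markers was 287 to 309.9 CPM in KO and 295 to 315 CPM in WT libraries, and its members differed in direction. Chil3, which held most of the sum, was at 209 ± 1.21 CPM in KO and 236 ± 15.0 CPM in WT libraries, and Treml4 at 72.5 ± 10.4 CPM in KO and 57.7 ± 2.03 CPM in WT libraries (SD, n = 3 each, edgeR adjusted p = 0.276 and 0.297). Ly6c2 was at 11.5 ± 1.69 CPM in KO and 7.86 ± 2.69 CPM in WT libraries, with overlapping groups. Of the 50-base sequences of Ccr2 transcripts 1.91% also occur in other genes, so a small share of its counts is uncertain.

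The remaining 3 receptors were at the edge of detection. Cx3cr1, the receptor of fractalkine, had 0, 4 and 4 counts in KO and 27, 8 and 4 counts in WT replicates 1, 2 and 3, and WT replicate 1 alone held most of them. Its transcripts share 1.06% of their 50-base sequences with other genes. Ackr3, an atypical receptor that scavenges Cxcl12, had 0, 19 and 8 counts in KO and 23, 8 and 19 counts in WT libraries (edgeR adjusted p = 0.850). Ccr3, the eotaxin receptor of eosinophils, had 14, 0 and 21 counts in KO and 3, 0 and 12 counts in WT libraries (edgeR adjusted p = 0.837). The groups overlapped for all 3 genes, and a difference was not detectable at this depth. The eosinophil marker Siglecf was at 0.479 to 0.695 CPM in KO and 0.456 to 0.941 CPM in WT libraries, and Ear6 was at 0 in all 6.

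Ligands of these receptors made up a list of 17 genes, of which 12 were tested and none passed over all genes. At an unadjusted p under 0.05 there were 5, with 3 lower (Ccl5, Ccl8 and Ccl4) and 2 higher (Ccl9 and Ccl6), where 10.4% of all genes tested were under that value. The median log2 fold change was -0.31, and 7 did not overlap between groups, 6 of them lower in KO, where 17.6% of all genes tested did not overlap. Scarce genes enter that median, with Rarres2 at 0.0729 and 0.148, Ccl24 at 0.281 and 0.512 and Cx3cl1 at 0.194 and 0.243 mean CPM (KO and WT). Ccl24 is among the 6. Ccl5 was at 184, 190.8 and 164 CPM in KO and 305, 252 and 262 CPM in WT libraries, with WT replicate 1 the highest (log2 fold change -0.60, SE 0.0856, edgeR adjusted p = 0.0756). Ccl6, the most abundant ligand, was at 779 ± 36.6 CPM in KO and 723 ± 15.6 CPM in WT libraries, and Ccl9 at 157 ± 0.9503 CPM in KO and 144 ± 4.63 CPM in WT libraries (SD, n = 3 each, edgeR adjusted p = 0.408 and 0.351). These ligands of Ccr1 thus stood on both sides of 0. Ccl8 was at 1.42 ± 0.701 CPM in KO and 3.28 ± 0.591 CPM in WT libraries, and Ccl4 at 8.77 ± 0.278 CPM in KO and 10.7 ± 0.702 CPM in WT libraries (edgeR adjusted p = 0.323 and 0.350). Ccl11 and Cxcl11 were at 0 in every library, and the ligand genes of Ccr7 were not analysed here.

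The list of 17 other chemokine receptors had 9 tested members, all with low levels. None passed, and Cxcr3 alone was under an unadjusted p of 0.05 (10.4% of all genes tested were), at 1.81 ± 0.237 CPM in KO and 3.04 ± 0.762 CPM in WT libraries (SD, n = 3 each, edgeR adjusted p = 0.318). Cxcr3 is known from activated T cells. The T and NK cell markers also had lower sums in KO libraries, though not every member was lower. Of 6 tested, 5 had values below 0 and Cd8a lay above it, at 3.37 ± 0.481 CPM in KO and 3.06 ± 1.34 CPM in WT libraries. The part of these cells in the Cxcr3 value was not tested. Cxcr6 was at 3.79 ± 0.150 CPM in KO and 4.82 ± 1.25 CPM in WT libraries, and Cxcr1 at 5.82 ± 0.795 CPM in KO and 6.0 ± 1.30 CPM in WT libraries. Ccr9 averaged 0.821 CPM in KO and 1.23 CPM in WT libraries, though 20.1% of its 50-base sequences occur in other genes. Xcr1 averaged 0.0725 CPM in KO and 0.199 CPM in WT libraries. 

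Of 10 receptors for other attractants, all tested, 5 were under an unadjusted p of 0.05, where 10.4% of all genes tested were, and none passed over all genes. C3ar1, the receptor of complement fragment C3a, was at 239, 235 and 252 CPM in KO and 191, 188 and 195 CPM in WT libraries, with the groups well apart (log2 fold change 0.34, SE 0.0418, edgeR adjusted p = 0.067). S1pr1, a sphingosine phosphate receptor, was at 18.5 ± 0.954 CPM in KO and 13.8 ± 1.004 CPM in WT libraries, and C5ar1, the receptor of C5a, at 26.7 ± 0.881 CPM in KO and 20.7 ± 3.82 CPM in WT libraries (SD, n = 3 each, edgeR adjusted p = 0.135 and 0.383). The formyl peptide receptor gene Fpr2 was at 123, 122 and 103 CPM in KO and 221, 161 and 168 CPM in WT libraries (edgeR adjusted p = 0.127). Since 31.5% of its 50-base sequences occur in related genes, its counts are uncertain. Ptafr, the receptor of platelet-activating factor and the most abundant of the list per length, was at 436 ± 8.57 CPM in KO and 438 ± 5.84 CPM in WT libraries.

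**Figure D4:**
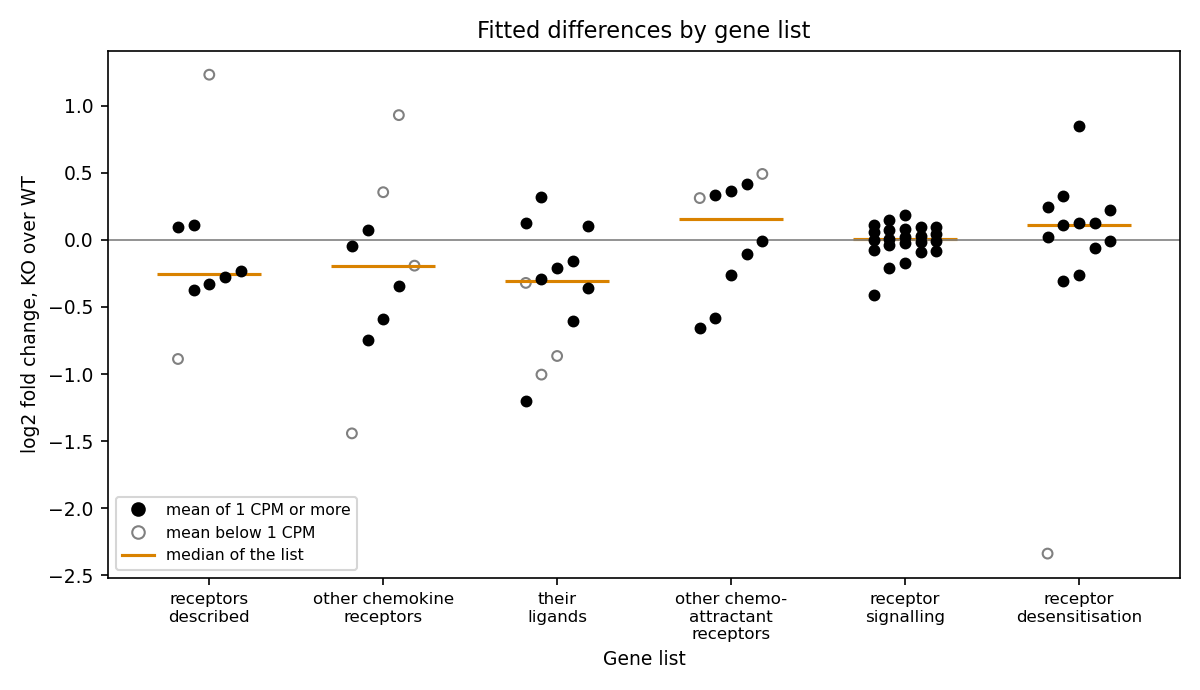
Fitted log2 fold change, KO over WT, of each tested gene (points) in 6 gene lists, with open points for genes below 1 CPM and a line at each list's median. The median lies at -0.25 for the receptors described, -0.31 for their ligands and 0.0070 for the signalling genes.

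Genes that carry the signal inside the cell had values on both sides of 0. Of 23 tested, 4 were under an unadjusted p of 0.05 (10.4% of all genes tested were) and none passed. The groups did not overlap for 6, 2 lower and 4 higher in KO (17.6% of all genes tested), and the median log2 fold change was 0.0070. The kinase gene Pik3cd was at 75.1 ± 5.31 CPM in KO and 86.6 ± 2.43 CPM in WT libraries (SD, n = 3 each, edgeR adjusted p = 0.299). Elmo1, a partner of Dock2 in leukocyte migration, was at 75.7 ± 2.90 CPM in KO and 66.5 ± 2.48 CPM in WT libraries, and the G protein gene Gnai3 at 232.9 ± 4.75 CPM in KO and 218 ± 4.53 CPM in WT libraries (edgeR adjusted p = 0.265 and 0.441). The most abundant members per length (FPKM), Cdc42 and Rap1b, were at 769 ± 12.3 and 445 ± 18.1 CPM in KO and 754 ± 6.54 and 443 ± 5.32 CPM in WT libraries. Elmo1 overlaps an antisense gene, so its counts are uncertain.

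Genes that end the signal numbered 13, of which 4 were under an unadjusted p of 0.05, where 10.4% of all genes tested were, and none passed. Rgs1, which speeds the shut-off of inhibitory G proteins, was at 54.3, 57.7 and 56.6 CPM in KO and 47.7, 47.3 and 46.8 CPM in WT libraries (log2 fold change 0.25, SE 0.0499, edgeR adjusted p = 0.131). Rgs18 was at 3.38 ± 0.540 CPM in KO and 1.87 ± 0.340 CPM in WT libraries and the receptor kinase gene Grk6 at 29.98 ± 3.57 CPM in KO and 25.7 ± 0.770 CPM in WT libraries (SD, n = 3 each, edgeR adjusted p = 0.204 and 0.451). Rgs16 averaged 0.0543 CPM in KO and 0.282 CPM in WT libraries, near the detection limit, and it overlaps an antisense gene. It is among the 4 under an unadjusted p of 0.05, with 4 counts in each KO library and 17 to 26 in WT libraries. It passed the filter on low counts through the WT libraries alone, so its p-value is no support for a difference. Grk2, the most abundant receptor kinase gene of the list, was at 160.2 ± 3.54 CPM in KO and 147.9 ± 18.1 CPM in WT libraries, and the arrestin gene Arrb2 at 77.7 ± 8.25 CPM in KO and 71.3 ± 7.89 CPM in WT libraries.

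Among the receptors of at least 5 CPM, Ccr7 and Ccrl2 had the widest ranges over the 6 libraries, at 0.74 and 0.54 on the log2 scale. The genes most like Ccrl2 were Cd52, Acod1 and Ets2, with a root mean square difference in centred log2 CPM of 0.0092, 0.033 and 0.033 over 6 libraries and 9019 candidate genes. Cd52, which encodes a small surface glycoprotein of leukocytes, was at 197, 195 and 179 CPM in KO and 258, 235 and 240.1 CPM in WT libraries. It shares exonic bases with an antisense gene, so its counts are uncertain, since no source used here says whether strand was counted. Acod1, which encodes the enzyme that makes itaconate, was at 1409, 1442 and 1277 CPM in KO and 1923, 1662 and 1745 CPM in WT libraries. For Ccr7 the closest genes were Cdk5rap1, Agk and Apbb2, at 0.076, 0.077 and 0.079. With 6 libraries the order is a description only.

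**Figure D5:**
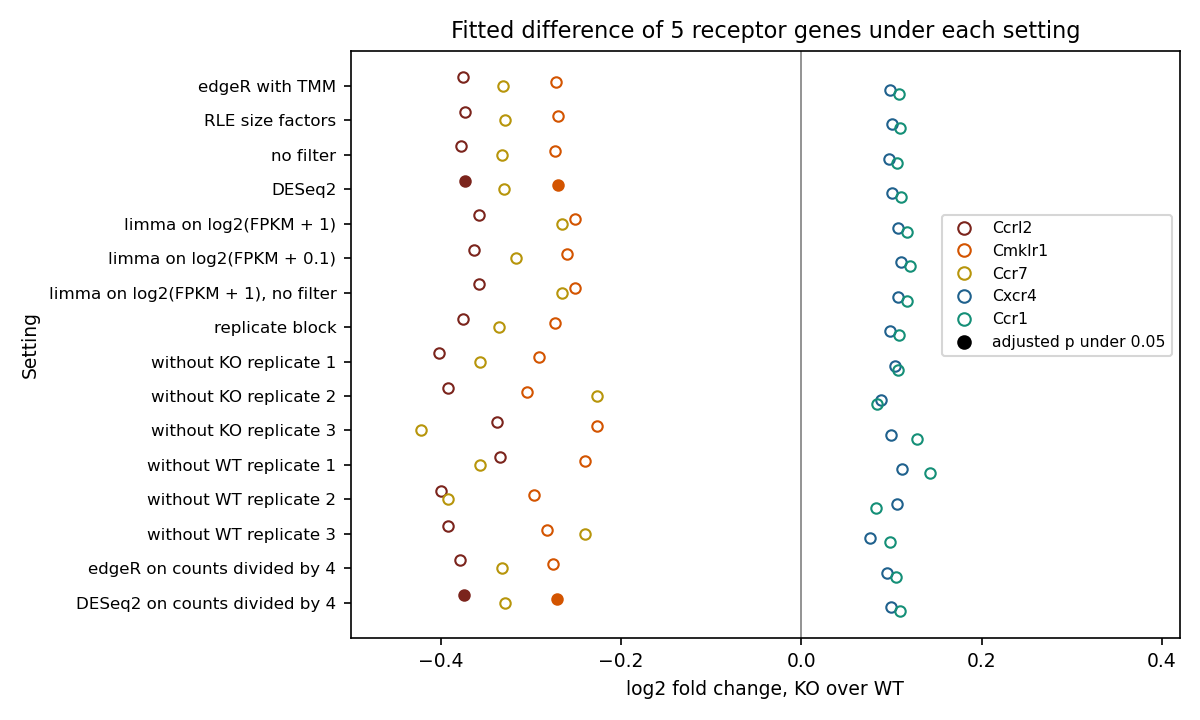
Fitted log2 fold change, KO over WT, of 5 receptor genes under the edgeR fit and each alternative (rows), with filled points where the adjusted p was under 0.05. Ccrl2 lies between -0.40 and -0.33 and Cmklr1 between -0.30 and -0.23 in every row, and Ccr1 and Cxcr4 lie above 0.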

How the data were processed

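Poly(A) RNA of 6 libraries was sequenced in pairs on a NovaSeq sequencer, per the labels. The submitters' processing notes list HISAT2 2.0. Counting tool, annotation, strand and genome build: not given in the sources used here. The deposited counts are whole numbers per gene, per the file headers, and the deposited FPKM values had been divided by length and depth by the authors. Low counts come in steps of about 4, and since it was not tested whether a count is 1 sequenced fragment, the limit for a count of 0 was set at 3 such steps and no other counting interval is given. The table has 12 other per-sample columns that match no sample here and were not used. Deposited coordinates equal GENCODE M21 (GRCm38) for 8 of the 9 receptors, and the Cx3cr1 end differs.

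Genes kept by filterByExpr (16239) were scaled by TMM. The two-sided quasi-likelihood test was run in edgeR 4.0.16 (R 4.3.3), with genotype as the only term and Benjamini-Hochberg adjustment over all genes at 0.05. The fit was tested on simulated data. CPM uses TMM-scaled library sizes, and folds are KO over WT. Members, lists and tests were chosen with earlier results of these data known. The text names the 9 receptors, Dclk1, the 4 genes of smallest p and the 2 most abundant of each pathway list, and the 3 genes closest to each of 2 receptors, except that 1 result of the signalling list is not reported here. Other genes named (Rarres2, Ccl11, Cxcl11 and cell type markers) were chosen after their values were seen. Alternatives were RLE size factors, no filter, DESeq2 1.42.0, limma 3.58.1 on log2(FPKM + 1) or log2(FPKM + 0.1), the replicate number as a block and leaving out each library. Chi-square over degrees of freedom was 36.7 to 42.8 between libraries of 1 group, so none was treated as a duplicate.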

Additional observations from a re-analysis of the deposited data

How the results depend on the processing

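For Ccrl2, Cmklr1, Ccr7, Cxcr4 and Ccr1 all 75 values under 15 alternatives had the sign of the edgeR fit. Ccrl2 and Cmklr1 passed only under DESeq2, which called 2 receptors on the deposited counts and 2 on counts divided by 4, a setting added once the values were known. No receptor passed under the other alternatives, and 0 were called whichever library was left out. Leaving out 1 library moved the log2 fold change of Ccrl2 between -0.40 and -0.33 (edgeR adjusted p = 0.098 to 0.262), of Cmklr1 between -0.30 and -0.23 (0.187 to 0.377) and of Ccr7 between -0.42 and -0.23 (0.504 to 0.702). Over all genes, 455 were called by DESeq2, 243 by DESeq2 on counts divided by 4, 7 with no filter, 3 by limma on log2(FPKM + 1) with no filter and 7 to 35 without 1 library, against 11 in the edgeR fit. The 7 were without WT replicate 1, the 35 without KO replicate 1 and 24 without WT replicate 2. The cause was not tested. With the replicate number as a block, 3 genes and 0 receptors were called. Same-numbered libraries deviated from their group means with correlations of 0.040, 0.050 and 0.015, so the numbers are not taken to pair the libraries, although each KO library correlated best with the WT library of its own number, a hint from the data only. Ccr3, Ackr3 and Cx3cr1 are limited by depth.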

Other observations

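Low values of the deposited counts are spaced. Over the 6 libraries, a count of 3 was listed for 245 to 296 genes, a count of 4 for 1005 to 1159 and a count of 5 for 172 to 203. The next peaks stood at 8, with 574 to 639 genes, and at 12, with 346 to 390 genes, while 9 was listed for 108 to 138 genes. For KO replicates 1 to 3 and WT replicates 1 to 3, the counts of Cx3cr1 were 0, 4, 4, 27, 8 and 4. Those of Ackr3 were 0, 19, 8, 23, 8 and 19, and those of Ccr3 were 14, 0, 21, 3, 0 and 12. Most whole numbers lie on or next to a multiple of 4, so counts this few cannot show the steps. How the counts were made is not given in the sources used here, and the cause of the steps was not tested.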
